A study of Mus musculus with 12 samples.

Results

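The Rab GTPases were followed in mouse skeletal muscle that lacks PTRF, the coat protein of caveolae that is now named Cavin1, against wild-type muscle. Members were all genes whose symbol is Rab, a number and an optional letter, with a mean of at least 1 TPM (a length-normalised share of the transcripts of a library) over 6 libraries. The rule gave 42 members among 59 such symbols and 21936 genes in all. It used the level and not the difference between genotypes. All mice were of the C57BL/6N strain, aged 3 months, and were either wild type or PTRF knockout. The knockout allele is not described in the labels. Neither do they tie a replicate to an animal of its own, so every p-value below reflects only how far these libraries spread, which may be technical.

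Rab proteins are small GTPases that give each membrane compartment its identity. A guanine nucleotide exchange factor (GEF) loads a Rab with GTP at its membrane, the loaded Rab recruits effectors that tether, move or fuse vesicles, and a GTPase-activating protein (GAP) switches it off. GDP dissociation inhibitors then carry the lipid-modified protein back through the cytosol. In muscle, Rabs are best known for moving the glucose transporter GLUT4 to the surface and for endosomal and lysosomal traffic; caveolae are a separate set of surface pits that exchange membrane with endosomes.

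The 12 labelled samples, 3 of each genotype from soleus and 3 from quadriceps, held 6 different sets of values. Each soleus file repeated the quadriceps file of the same genotype and number with a largest difference of 0 TPM, so 3 wild-type and 3 knockout libraries were counted and the muscle of origin could not be read from the labels. Here and below, the 3 values of a group stand in the order of libraries 1, 2 and 3. Cavin1, the deleted gene, was 45.2, 40.0 and 42.2 TPM in the wild type and 0.284, 0.0905 and 0.0254 TPM in the knockout (log2 fold change -5.27, SE 0.14, limma adjusted p = 3.1e-09). Both slow and fast fibre transcripts were abundant, with summed levels of 16155 to 23552 TPM for 6 slow markers and 17699 to 22841 TPM for 6 fast markers. Wild-type library 2 stood apart from the other 2 wild-type libraries in Myh4, the fast type IIB myosin, which was 6.43, 194 and 4.21 TPM in the wild type and 238, 580 and 346 TPM in the knockout. Transcripts of the mitochondrial genome made up 43.0% to 52.3% of the wild-type libraries and 39.0% to 45.7% of the knockout libraries.

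Because TPM is a share, every comparison is given on 2 scales. On the deposited scale the median log2 fold change of the 11056 genes tested was 0.33, so most genes lay above 0. After rescaling each library by a trimmed mean of its ratios to an average library it was -0.02. A member that passes on both scales differed against the body of genes as well as against the deposited total. The 2 calls are not separate support. All 1581 genes higher after rescaling were also higher on the deposited scale, and all 323 genes lower on the deposited scale were also lower after rescaling. The rescaled call thus decides for a higher gene and the deposited call for a lower one.

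Other cell types also differed between the genotypes. All 12 macrophage markers were higher in the knockout on both scales, with summed levels of 40.9 to 48.8 TPM in the wild type and 200.3 to 253 TPM in the knockout. All 7 fibroblast markers were higher on both scales, with sums of 275 to 303 TPM against 843 to 875 TPM. Of 6 endothelial markers, 5 were higher on the deposited scale and 4 after rescaling, while Kdr was lower on both, and the sums were 76.9 to 84.4 TPM against 155 to 172 TPM. The 6 neutrophil and mast cell markers tested, of 7, were higher on both scales (sums of 2.54 to 5.56 TPM against 18.4 to 45.3 TPM). Of 9 lymphocyte markers 1 passed the filter on low values, and it was higher on both scales (sums of 1.04 to 1.20 TPM against 2.20 to 3.47 TPM); Cd8a was at 0 in wild-type libraries 1 and 2, and Cd3e was at 0 in wild-type library 2. None of the macrophage or fibroblast markers was at 0 in any library. That filter was passed only through the knockout libraries by 2 of the 12 macrophage markers and 2 of the 6 neutrophil and mast cell markers. The same held for the 1 lymphocyte marker, and all of these could only be seen to be higher. In the smooth muscle, adipocyte, Schwann cell, satellite cell and fibre sets no marker passed as higher after rescaling. There 2 of the 3 Schwann and nerve markers tested and 3 of 6 slow fibre markers were lower (13.9% of all genes). On the deposited scale neither set had a lower call. Rescaled sums, wild type against knockout, were 21.8 to 24.4 against 12.2 to 16.9 (Schwann) and 19866.5 to 24551.7 against 13923.6 to 17611.5 (slow fibre). In such bulk samples more cells of a type and more RNA per cell cannot be told apart, and the part of these cells in the Rab results was not tested.

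The family as a whole was carried by a few abundant members. Rab7 had the highest mean over the 6 libraries (144 TPM), followed by Rab12 (108 TPM), Rab2a (97.7 TPM), Rab10 (91.5 TPM), Rab18 (70.7 TPM), Rab28 (65.6 TPM), Rab14 (57.4 TPM) and Rab11a (56.5 TPM). These 8 members held 57.6% to 61.1% of the family's summed TPM in each library. The order of the 42 members by level was nearly the same in all libraries, with Spearman's rho between 0.967 and 0.992 over the 15 pairs of libraries, a description across genes of libraries that share their annotation. The summed TPM of the 42 members was 1071 ± 81.0 (SD, n = 3) in the wild type and 1272 ± 148 (SD, n = 3) in the knockout on the deposited scale, and the groups overlapped. After rescaling the direction was the opposite, 1230 ± 24.1 against 1101 ± 28.7 (SD, n = 3 each), and the groups did not overlap. Of the summed TPM of nuclear genes the members held 0.247 ± 0.00628% in the wild type and 0.255 ± 0.0145% in the knockout (SD, n = 3 each), with overlap.

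**Figure D1:**
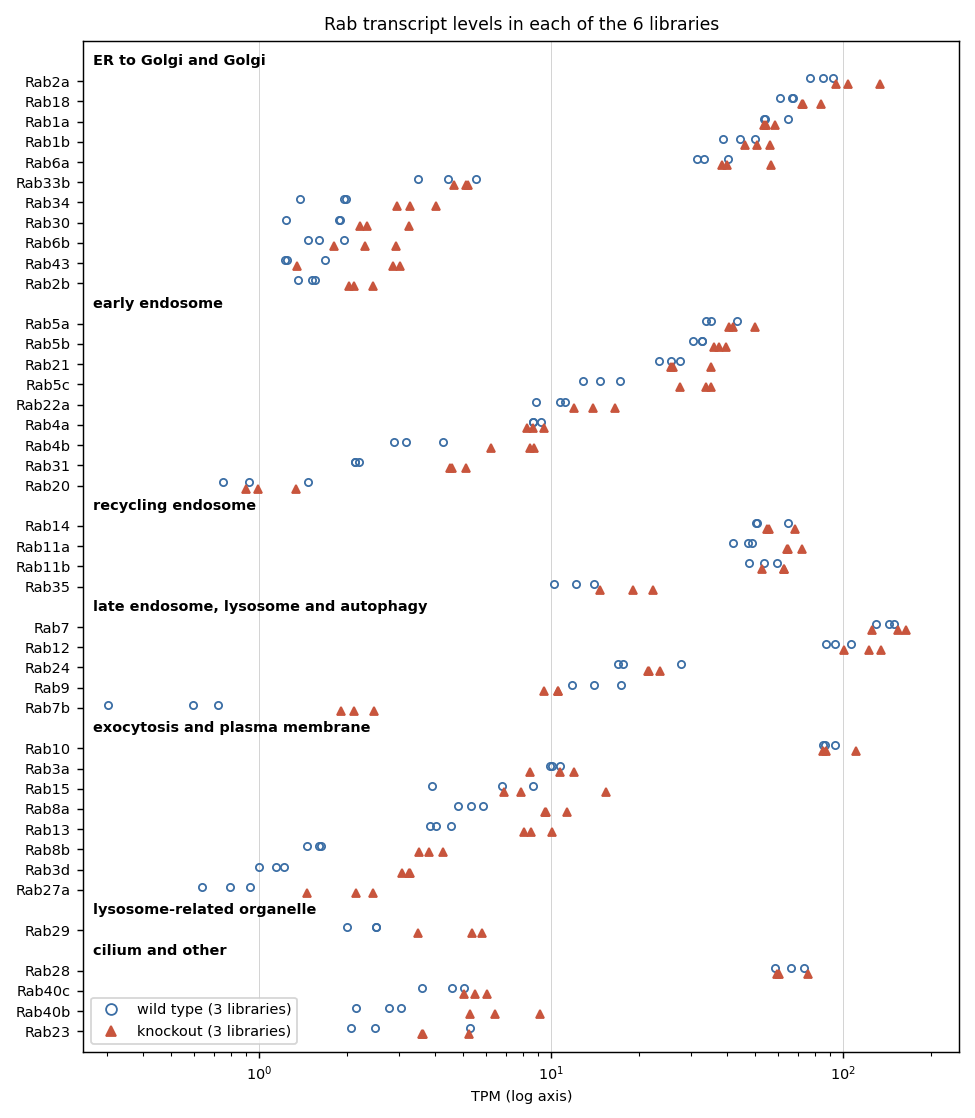
Level of each of the 42 Rab members in each library, in TPM on a log axis, with members grouped by compartment; open circles are the 3 wild-type libraries and triangles the 3 knockout libraries. Levels run from 0.303 TPM for Rab7b in wild-type library 2 to 164 TPM for Rab7 in knockout library 1, and all 3 triangles lie right of all 3 circles for 20 members.

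In all, 10 members were higher in the knockout on both scales and 1, Rab9, was lower on both. On the deposited scale 15 of the 41 members tested were higher (limma, Benjamini-Hochberg adjusted p under 0.05), where 36.3% of all genes tested were higher, and 1 was lower, where 2.92% of all genes were lower. After rescaling 10 were higher and 7 were lower, where 14.3% of all genes were higher and 13.9% lower. On the nuclear-only scale, which leaves out the mitochondrial transcripts, 13 were higher and 1 lower, where 24.2% and 6.84% of all genes were; after quantile normalization 9 were higher and 3 lower, where 12.7% and 13.1% of all genes were. The median log2 fold change of the 41 members was 0.34 on the deposited scale (0.33 for all genes) and 0.02 after rescaling (-0.02 for all genes). The groups did not overlap, with the knockout higher, for 20 members on the deposited scale (48.7% of all genes) and for 12 after rescaling (21.2% of all genes). The knockout libraries all lay below the wild type for 1 member on the deposited scale (4.83% of all genes) and for 13 after rescaling (23% of all genes). Leaving out wild-type libraries 1, 2 or 3 or knockout libraries 1, 2 or 3 gave 12 to 20 higher members on the deposited scale, and the 10 that passed on both scales passed in each of these fits. On the rescaled values the same fits gave 8 or 9 higher members. There 8, 9 and 8 of the 10 kept the call without wild-type libraries 1, 2 and 3, and 8, 8 and 7 without knockout libraries 1, 2 and 3, with Rab8a, Rab13 and Rab27a the ones lost. Rab9 showed the reverse, keeping its call in the 6 rescaled fits and losing it in 5 of the 6 deposited ones. Leaving out knockout library 2 brought 5 members above the threshold that missed it with all libraries, Rab2a (adjusted p = 0.0472), Rab6b (adjusted p = 0.0418), Rab22a (adjusted p = 0.0257), Rab30 (adjusted p = 0.0348) and Rab43 (adjusted p = 0.00299), and leaving out wild-type library 3 brought Rab23 (adjusted p = 0.0235).

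**Figure D2:**
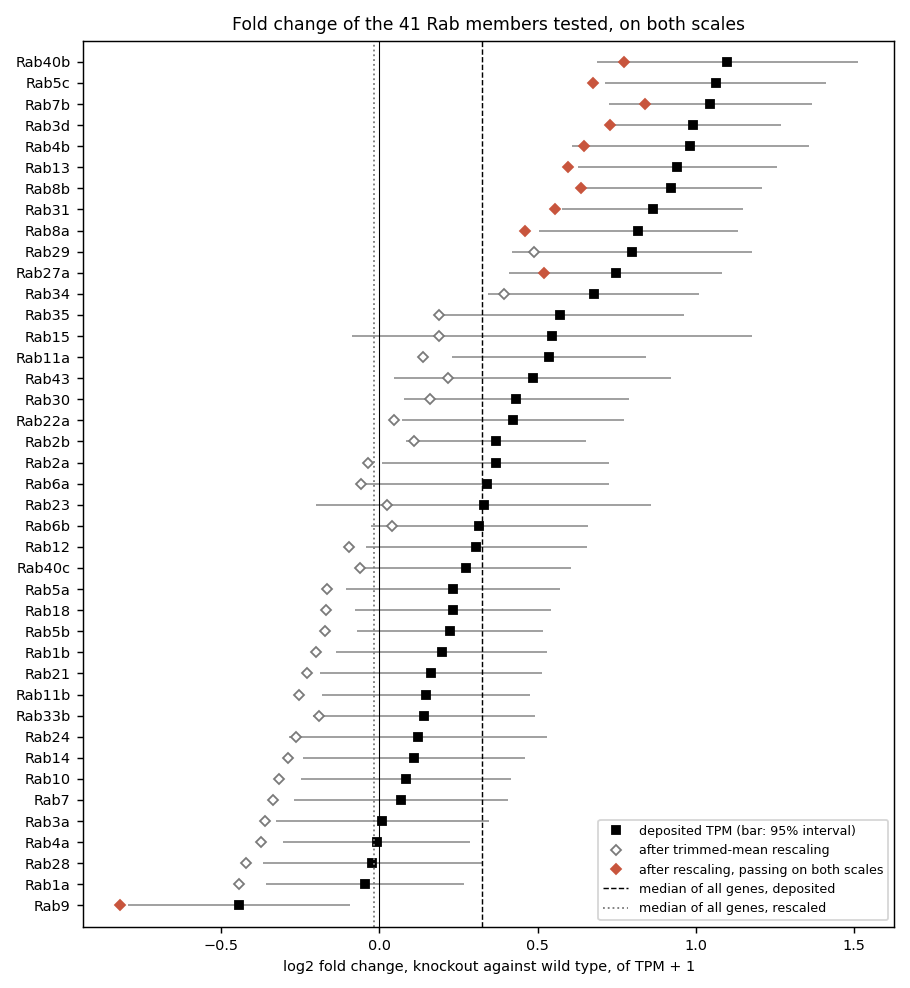
Log2 fold change, knockout against wild type, of TPM + 1 for the 41 members tested; squares with bars are deposited values with 95% intervals, diamonds the values after rescaling (filled where the member passed on both scales), and vertical lines the medians of all genes, 0.33 and -0.02. Rab40b to Rab27a lie to the right on both scales and Rab9 to the left on both, while members such as Rab7 and Rab10 lie above 0 on the deposited scale and below 0 after rescaling.

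In the early secretory pathway, from endoplasmic reticulum to Golgi, 2 of 11 members were higher on the deposited scale (36.3% of all genes). Neither passed after rescaling (14.3% of all genes were higher), when 1 other member was lower (13.9% of all genes). Rab1a, which carries vesicles from the endoplasmic reticulum to the Golgi, was 53.5, 54.1 and 64.8 TPM in the wild type and 58.2, 54.6 and 53.7 TPM in the knockout. These groups overlapped, with a log2 fold change of -0.04 (adjusted p = 0.813) on the deposited scale and -0.44 (adjusted p = 0.00702) after rescaling. Its paralog Rab1b was 44.4, 38.9 and 49.8 TPM against 56.3, 45.9 and 50.7 TPM and passed on neither scale. Rab2a, which acts between the same compartments, was 77.2, 85.2 and 92.1 TPM in the wild type and 134, 94.8 and 104 TPM in the knockout; the knockout libraries were all above the wild type, but the log2 fold change was 0.37 (adjusted p = 0.0916) on the deposited scale and -0.03 (adjusted p = 0.838) after rescaling.

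Rab34, a Golgi Rab that also positions lysosomes, was 1.94, 1.38 and 1.98 TPM in the wild type and 2.97, 3.27 and 4.04 TPM in the knockout. All 3 knockout libraries exceeded all 3 wild-type libraries, with a log2 fold change of 0.68 (SE 0.15, adjusted p = 0.00529) that was 0.40 (adjusted p = 0.0767) after rescaling. Rab2b was 1.55, 1.35 and 1.52 TPM against 2.12, 2.02 and 2.45 TPM, again without overlap, at a log2 fold change of 0.37 (SE 0.13, adjusted p = 0.0411) that was 0.11 (adjusted p = 0.516) after rescaling and -0.05 (adjusted p = 0.766) after quantile normalization. Leaving out any library other than knockout library 2 left Rab2b short of the threshold, with adjusted p between 0.0617 and 0.138. Of its exonic bases 59.3% overlap an annotated gene on the other strand, and whether the counting used strand is not given in the sources used here.

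The remaining Golgi members passed on neither scale. Rab18, found on lipid droplets and the endoplasmic reticulum, was 67.5, 66.5 and 60.5 TPM against 84.2, 72.9 and 72.3 TPM, without overlap and with a log2 fold change of 0.23 (adjusted p = 0.197) on the deposited scale and -0.17 (adjusted p = 0.324) after rescaling. Rab6a, which runs from Golgi back to the endoplasmic reticulum, averaged 35.0 TPM in the wild type and 45.0 TPM in the knockout, and its paralog Rab6b averaged 1.67 and 2.35 TPM. Rab33b, Rab30 and Rab43, which also act at the Golgi, had log2 fold changes of 0.14, 0.43 and 0.48 on the deposited scale and -0.19, 0.16 and 0.22 after rescaling. An annotated gene on the same strand overlaps 75.4% of the exonic bases of Rab43.

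At the early endosome 3 of the 8 members tested were higher on both scales (14.3% of all genes) and 1 was lower after rescaling (13.9% of all genes). Rab5c, Rab4b and Rab31 rose on both scales, while Rab5a, Rab5b, Rab21 and Rab22a passed on neither and Rab4a was lower after rescaling only. Rab5 proteins drive the fusion of incoming vesicles with early endosomes. Rab5c (ENSMUSG00000019173, chr11:100715009-100738215, minus strand, GRCm38) was 14.7, 12.9 and 17.2 TPM in the wild type and 35.2, 27.5 and 33.9 TPM in the knockout. All 3 knockout libraries were well above the wild type, at 2.16 times its mean. The log2 fold change was 1.06 (SE 0.16, adjusted p = 0.000434) on the deposited scale and 0.67 (SE 0.10, adjusted p = 0.00179) after rescaling. By contrast, Rab5a was 35.2, 34.0 and 43.2 TPM against 49.8, 40.7 and 42.0 TPM, with overlap, and Rab5b was 32.9, 32.9 and 30.7 TPM against 39.6, 36.0 and 37.5 TPM, without overlap. Neither passed: their log2 fold changes were 0.23 (adjusted p = 0.233) and 0.22 (adjusted p = 0.191) on the deposited scale, and -0.16 (adjusted p = 0.187) and -0.17 (adjusted p = 0.284) after rescaling.

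The 3 Rab5 genes are on different chromosomes, and their promoters are shown because only Rab5c of the 3 passed. Each is the 250 bases upstream of the annotated start, from RefSeq on build GRCm38.p6, written 5′ to 3′ on the gene's strand. Capitals mark 3 motifs searched on both strands, GGGCGG or CCGCCC (the GC box), CCAAT or ATTGG (the CCAAT box) and CACGTG (the E-box). Rab5a lies at chr17:53478984-53479233 on the plus strand, Rab5b at chr10:128696269-128696518 and Rab5c at chr11:100738216-100738465, both on the minus strand.
Rab5a: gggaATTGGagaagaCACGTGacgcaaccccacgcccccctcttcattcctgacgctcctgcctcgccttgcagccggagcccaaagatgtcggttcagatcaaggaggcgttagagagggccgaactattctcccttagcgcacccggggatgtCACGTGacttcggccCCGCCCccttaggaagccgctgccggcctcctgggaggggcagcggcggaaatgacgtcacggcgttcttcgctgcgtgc
Rab5b: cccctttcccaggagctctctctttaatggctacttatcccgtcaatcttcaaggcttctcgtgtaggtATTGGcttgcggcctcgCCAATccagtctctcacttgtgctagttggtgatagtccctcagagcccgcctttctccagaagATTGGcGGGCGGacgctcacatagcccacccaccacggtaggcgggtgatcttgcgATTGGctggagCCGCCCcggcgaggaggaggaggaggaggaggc
Rab5c: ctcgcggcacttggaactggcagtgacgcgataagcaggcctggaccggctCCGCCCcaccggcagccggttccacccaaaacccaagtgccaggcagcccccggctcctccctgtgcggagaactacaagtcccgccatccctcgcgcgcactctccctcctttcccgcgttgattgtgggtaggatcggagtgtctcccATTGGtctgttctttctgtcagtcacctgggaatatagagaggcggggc
All 3 windows held a GC box and a CCAAT box, with 1, 2 and 1 GC box matches and 1, 4 and 1 CCAAT box matches in Rab5a, Rab5b and Rab5c. The E-box letters occurred in the Rab5a window, at 2 places, and in neither of the others. The G+C content was 64.0%, 59.2% and 63.2% in the same order. These matches are descriptions of the letters and not of binding sites.

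Rab5c is a neighbour of the deleted gene: the 2 genes lie 219 kb apart on chromosome 11. Within 500 kb of Cavin1 33 genes were tested, Rab5c among them, of which 15 were higher on the deposited scale (36.3% of all genes), and 10 were higher and 3 lower after rescaling (14.3% and 13.9% of all genes). Rab5c is 1 of the 15 and of the 10. Their median log2 fold change was 0.41 on the deposited scale and 0.11 after rescaling, against 0.33 and -0.02 for all genes. The part of this position in the Rab5c result was not tested.

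Rab4 proteins return cargo quickly from early endosomes to the surface. Rab4b (ENSMUSG00000053291, chr7:27168424-27178896, minus strand) was 2.89, 3.19 and 4.27 TPM in the wild type and 8.70, 8.45 and 6.22 TPM in the knockout. The lowest knockout library exceeded the highest wild-type library, with a log2 fold change of 0.98 (SE 0.17, adjusted p = 0.00114) on the deposited scale and 0.65 (adjusted p = 0.0123) after rescaling. An annotated gene on the same strand overlaps 65.0% of its exonic bases, so reads of the pair may have been divided in ways that are not stated. When wild-type library 2 was left out along with knockout library 1, Rab4b missed the threshold after rescaling (adjusted p = 0.0860). Rab4a, which shares its name and route, was 8.67, 8.64 and 9.25 TPM against 8.68, 9.45 and 8.29 TPM; the groups overlapped almost completely, and the log2 fold change was -0.01 (adjusted p = 0.965) on the deposited scale and -0.37 (adjusted p = 0.0433) after rescaling.

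Rab31 (ENSMUSG00000056515, chr17:65651729-65772752, minus strand), which moves cargo between the trans-Golgi network and endosomes, was 2.19, 2.12 and 2.12 TPM in the wild type and 4.49, 4.58 and 5.12 TPM in the knockout. The wild-type libraries were nearly equal and all knockout libraries were above them, with a log2 fold change of 0.86 (SE 0.13, adjusted p = 0.000455) on the deposited scale and 0.56 (adjusted p = 0.00979) after rescaling. Rab22a was 10.7, 8.88 and 11.2 TPM against 16.5, 12.0 and 13.9 TPM, without overlap, at a log2 fold change of 0.42 (adjusted p = 0.0549) on the deposited scale and 0.05 (adjusted p = 0.771) after rescaling. Rab21, linked to the uptake of integrins, averaged 25.6 TPM in the wild type and 29.0 TPM in the knockout. Rab20, the member with the lowest mean (1.06 TPM), did not pass the filter on low values and was 0.752, 0.923 and 1.47 TPM against 1.34, 0.899 and 0.990 TPM.

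Among the 4 recycling Rabs, 2 were higher on the deposited scale (36.3% of all genes) and both missed the threshold after rescaling. Rab11a, the marker of the slow recycling endosome, was 47.2, 42.0 and 48.7 TPM in the wild type and 72.2, 64.8 and 64.2 TPM in the knockout. Its groups did not overlap on either scale, with a log2 fold change of 0.54 (SE 0.14, adjusted p = 0.0117) on the deposited scale and 0.14 (adjusted p = 0.284) after rescaling. Without wild-type library 2 the deposited value was 0.47 (adjusted p = 0.0666). Its paralog Rab11b was 47.4, 53.6 and 59.3 TPM against 62.5, 52.6 and 62.7 TPM, with overlap, at log2 fold changes of 0.15 (adjusted p = 0.432) and, after rescaling, -0.25 (adjusted p = 0.0872).

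Rab35, which returns cargo to the plasma membrane, was 14.0, 10.2 and 12.1 TPM in the wild type and 22.3, 14.7 and 19.0 TPM in the knockout. The groups met closely without overlapping, at a log2 fold change of 0.57 (SE 0.18, adjusted p = 0.0262) that was 0.19 (adjusted p = 0.349) after rescaling. Leaving out wild-type library 2 or 3, or knockout library 1 or 3, left it short of the threshold, with adjusted p between 0.0540 and 0.109. Rab14, which runs between Golgi and endosomes and is found on GLUT4 vesicles, was 50.4, 50.7 and 64.6 TPM against 68.5, 55.6 and 54.7 TPM, with overlap. Its log2 fold change of 0.11 (adjusted p = 0.587) on the deposited scale became -0.29 (adjusted p = 0.0484) after rescaling.

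On the late endosome and lysosome 1 of 5 members was higher on both scales (14.3% of all genes) and 1 was lower on both (2.92% of all genes). Rab9 (ENSMUSG00000079316, chrX:166457253-166479867, minus strand), which returns lysosomal enzyme receptors from late endosomes to the Golgi, was 11.7, 17.3 and 14.0 TPM in the wild type and 10.6, 10.5 and 9.46 TPM in the knockout. Every knockout library lay below every wild-type library, the highest knockout value being close to that of wild-type library 1. The log2 fold change was -0.44 (SE 0.16, adjusted p = 0.0464) on the deposited scale and -0.82 (SE 0.16, adjusted p = 0.00702) after rescaling. On the deposited scale the call was lost when wild-type library 2 (adjusted p = 0.202) or 3 (adjusted p = 0.0747) or knockout library 1 (adjusted p = 0.0744), 2 (adjusted p = 0.0554) or 3 (adjusted p = 0.138) was left out. After rescaling it passed in each of the 6 fits without a library.

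The RefSeq promoter of Rab9, 250 bases upstream of the start at chrX:166479868-166480117 on the minus strand of GRCm38.p6, is shown because Rab9 is the member lower on both scales. Matches to the same 3 motifs would be in capitals.
Rab9: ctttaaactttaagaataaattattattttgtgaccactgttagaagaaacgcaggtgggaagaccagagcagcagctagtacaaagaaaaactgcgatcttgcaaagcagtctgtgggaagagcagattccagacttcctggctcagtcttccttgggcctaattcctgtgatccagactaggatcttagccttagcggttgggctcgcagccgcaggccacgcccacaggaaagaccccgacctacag
It held none of the 3 motifs, and its G+C content was 48.8%, against 59.2% to 64.0% in the 3 Rab5 windows. Nothing about any factor follows from the absence of letters in a window of this length.

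Rab7, the Rab that brings late endosomes to lysosomes and the most abundant member, was 129, 143 and 149.6 TPM in the wild type and 164, 126 and 155 TPM in the knockout. The groups overlapped, and the log2 fold change of 0.07 (adjusted p = 0.729) on the deposited scale was -0.33 (adjusted p = 0.0367) after rescaling. Rab7b (ENSMUSG00000052688, chr1:131688695-131715439, plus strand), which shares the number but acts between endosomes and the trans-Golgi network, was 0.724, 0.303 and 0.591 TPM in the wild type and 2.47, 1.91 and 2.12 TPM in the knockout. All knockout libraries were above all wild-type libraries, with a log2 fold change of 1.05 (SE 0.15, adjusted p = 0.000271) on the deposited scale and 0.84 (adjusted p = 0.00279) after rescaling. Since no wild-type library reached 1 TPM, Rab7b entered the test through its knockout libraries and could only be seen to be higher. Rab12, linked to the degradation of receptors and to autophagy, was 87.3, 93.8 and 106 TPM against 135, 100.5 and 122 TPM, with overlap and log2 fold changes of 0.31 (adjusted p = 0.138) and, after rescaling, -0.10 (adjusted p = 0.496). Rab24, an autophagy Rab of which 62.4% of the exonic bases overlap Prelid1 on the other strand, averaged 20.8 TPM in the wild type, where library 3 was highest at 27.9 TPM, and 22.2 TPM in the knockout.

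Rabs of exocytosis and the plasma membrane had the largest number of members that rose: 5 of 8 passed on both scales, where 14.3% of all genes did, and 1 of the 5, Rab27a, passed the filter on low values only through its knockout libraries. Rab8 proteins and Rab13 direct vesicles to the cell surface, and Rab8a and Rab13 are known from GLUT4 traffic in cultured muscle cells. Rab8a (ENSMUSG00000003037, chr8:72161200-72183904, plus strand) was 5.85, 5.29 and 4.79 TPM in the wild type and 11.3, 9.57 and 9.53 TPM in the knockout. Its paralog Rab8b (ENSMUSG00000036943, chr9:66843664-66919687, minus strand) was 1.46, 1.60 and 1.63 TPM against 3.82, 4.24 and 3.51 TPM. Rab13 (ENSMUSG00000027935, chr3:90213695-90226385, plus strand) was 4.04, 4.53 and 3.84 TPM against 8.03, 10.05 and 8.56 TPM. For all 3 genes each knockout library was above each wild-type library, on both scales. The log2 fold change of Rab8a was 0.82 (SE 0.14, adjusted p = 0.00121) and, after rescaling, 0.46 (adjusted p = 0.0268). For Rab8b it was 0.92 (SE 0.13, adjusted p = 0.000322) and, after rescaling, 0.64 (adjusted p = 0.00655). For Rab13 it was 0.94 (SE 0.14, adjusted p = 0.000477) and, after rescaling, 0.60 (adjusted p = 0.0244). On the rescaled values Rab8a missed the threshold without wild-type library 2 (adjusted p = 0.0518) or 3 (adjusted p = 0.0765), or without knockout library 1 (adjusted p = 0.0652), 2 (adjusted p = 0.0614) or 3 (adjusted p = 0.0572). Rab13 missed it there without wild-type library 1 (adjusted p = 0.0611) or 3 (adjusted p = 0.0867), or without knockout library 2 (adjusted p = 0.0579) or 3 (adjusted p = 0.0630), while Rab8b passed in all 6 such fits.

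Rab3d and Rab27a belong to regulated secretion: Rab3d sits on secretory granules, including those of mast cells, and Rab27a tethers lysosome-related granules and exosome-forming compartments to the surface. Rab3d (ENSMUSG00000019066, chr9:21907491-21918192, minus strand) was 1.14, 0.995 and 1.22 TPM in the wild type and 3.25, 3.09 and 3.28 TPM in the knockout. The spread within each group was small beside the gap between them, and the log2 fold change was 0.99 (SE 0.13, adjusted p = 0.000156) on the deposited scale and 0.73 (adjusted p = 0.00175) after rescaling. Rab27a (ENSMUSG00000032202, chr9:73044854-73097629, plus strand) was 0.636, 0.791 and 0.927 TPM against 2.45, 1.45 and 2.15 TPM. The groups did not overlap, with a log2 fold change of 0.75 (SE 0.15, adjusted p = 0.00324) that was 0.52 (adjusted p = 0.0170) after rescaling. Like Rab7b, it entered the test only through its knockout libraries. After rescaling it missed the threshold without wild-type library 1 (adjusted p = 0.0589) or knockout library 1 (adjusted p = 0.0522) or 3 (adjusted p = 0.0626), and it also missed it after quantile normalization (adjusted p = 0.0740). The mast cell and neutrophil markers rose in the same libraries, as given above, and their part in the Rab3d and Rab27a values was not tested.

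The other 3 members of this group did not pass as higher on either scale. Rab10, the GLUT4 Rab of fat cells and by far the most abundant of the group, was 86.3, 85.5 and 93.5 TPM in the wild type and 111, 87.6 and 85.0 TPM in the knockout. The groups overlapped, and the log2 fold change was 0.09 (adjusted p = 0.658) on the deposited scale and -0.32 (adjusted p = 0.0375) after rescaling. Rab3a, the synaptic vesicle Rab, was 9.94, 10.02 and 10.7 TPM against 12.0, 10.7 and 8.46 TPM, at 0.01 (adjusted p = 0.961) and, after rescaling, -0.36 (adjusted p = 0.0606). Rab15 ranged from 3.92 to 8.63 TPM in the wild type and from 6.87 to 15.4 TPM in the knockout, at log2 fold changes of 0.55 (adjusted p = 0.143) and, after rescaling, 0.19 (adjusted p = 0.661), and passed on neither scale.

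Outside these compartments, Rab29, a Rab of the trans-Golgi network and a partner of the kinase Lrrk2, was 1.99, 2.52 and 2.51 TPM in the wild type and 5.79, 5.35 and 3.51 TPM in the knockout. The knockout libraries were all higher, with a log2 fold change of 0.80 (SE 0.17, adjusted p = 0.00431) that was 0.49 (adjusted p = 0.0564) after rescaling. Rab40b (ENSMUSG00000025170, chr11:121356125-121388251, minus strand), one of the Rabs that carry a SOCS box and form a ubiquitin ligase with a cullin, was 2.78, 2.15 and 3.05 TPM against 9.19, 5.27 and 6.40 TPM. This was the largest log2 fold change of the 41 members tested on the deposited scale, 1.10 (SE 0.19, adjusted p = 0.00103), and it was 0.77 (adjusted p = 0.00530) after rescaling, with no overlap on either scale. Its paralog Rab40c, with the same domain, was 4.57, 3.60 and 5.02 TPM against 6.03, 5.02 and 5.47 TPM and passed on neither scale. Rab28, known from cilia, was 66.5, 58.3 and 73.3 TPM against 75.9, 60.3 and 59.4 TPM, with overlap, at -0.02 (adjusted p = 0.920) on the deposited scale and -0.42 (adjusted p = 0.0113) after rescaling. Rab23, a ciliary regulator of Hedgehog signalling, was 2.48, 2.06 and 5.27 TPM against 3.61, 3.64 and 5.21 TPM and passed on neither scale.

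The members that rose were mostly the scarcer ones. With the family split at its median level of 9.56 TPM, 9 of the 20 tested members below it were higher on both scales (45%), where 16.4% of all genes tested in that range of levels were. Above it 1 of 21 members was, Rab5c (4.76%), where 10.7% of all genes were. In the opposite direction, 6 of the 21 abundant members were lower after rescaling (28.6%, against 22.4% of all genes in the range) and 1 of the 20 scarcer ones (5%, against 7.37%). Rab7b and Rab27a are among the 9 and could be tested only because of their knockout levels, so this count is a description. The members lower after rescaling were Rab1a, Rab4a, Rab7, Rab10, Rab14 and Rab28 besides Rab9; of these 7, Rab1a, Rab4a and Rab28 were at -0.04 to -0.01 and Rab7, Rab10 and Rab14 at 0.07 to 0.11 on the deposited scale. The 7 calls became 3, 3 and 3 without wild-type libraries 1, 2 and 3, and 4, 5 and 3 without knockout libraries 1, 2 and 3.

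**Figure D3:**
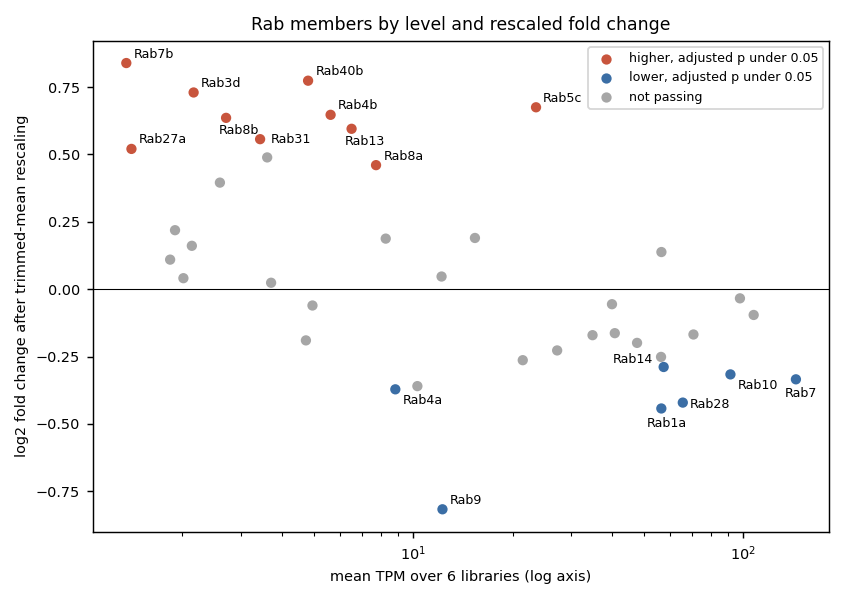
Mean TPM over the 6 libraries (log axis) against log2 fold change after trimmed-mean rescaling for the 41 members tested; red points were higher and blue points lower in the knockout on that scale at an adjusted p under 0.05. Of the 10 red points 9 lie below 9.56 TPM and the other is Rab5c, while 6 of the 7 blue points lie above it; on the deposited scale Rab9 alone of the blue points was lower.

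The share that 1 paralog holds of its numbered subgroup does not depend on how a library is scaled. Of 10 subgroups with at least 2 members, 7 had a share whose 3 knockout libraries all lay outside the wild-type range. How often the shares of other gene pairs separate in this way was not computed, so the 7 are a description. The Rab7 subgroup is 1 of them, and no wild-type library of Rab7b reached 1 TPM. Rab3d held 10.3%, 9.03% and 10.2% of the summed Rab3a and Rab3d TPM in the wild type and 21.4%, 22.3% and 27.9% in the knockout (9.85 ± 0.708% against 23.9 ± 3.54%, SD, n = 3). Rab4b held 25.0%, 26.9% and 31.6% of Rab4 against 50.1%, 47.2% and 42.9%, so that the pair was near parity in the knockout. Rab5c held 17.8%, 16.1% and 18.9% of the 3 Rab5 transcripts against 28.2%, 26.4% and 29.9%. The shares of a subgroup sum to the whole, so those of the others had to be lower, and the deposited TPM of Rab5a and Rab5b was not. After rescaling Rab5a was 41.9, 41.8 and 45.1 in the wild type and 39.3, 38.5 and 36.9 in the knockout, without overlap. The rescaled values of Rab5b overlapped, and neither gene passed on either scale. Rab5a held 44.2 ± 2.81% and 38.7 ± 1.52% and Rab5b held 38.2 ± 3.99% and 33.2 ± 1.37% (SD, n = 3), and the Rab5b shares overlapped.

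Rab40b held 37.8%, 37.3% and 37.8% of the Rab40 pair in the wild type and 60.4%, 51.2% and 53.9% in the knockout, which made it the larger of the 2 in each knockout library. Rab11a likewise changed from the smaller to the larger of its pair, with 49.9%, 43.9% and 45.1% against 53.6%, 55.2% and 50.6%. Rab7b stayed a trace beside Rab7, at 0.556%, 0.211% and 0.393% against 1.48%, 1.50% and 1.35%. Rab1b held 45.4%, 41.8% and 43.5% against 49.2%, 45.7% and 48.5%, and so stayed below Rab1a. The smallest p that an exact 2-sided permutation test can give with 3 against 3 libraries is 0.1, which each of these shares except that of Rab5b reached (0.15 after Benjamini-Hochberg adjustment over the 21 shares computed), so none could pass 0.05. The groups overlapped for the Rab8 pair, of which both members rose (Rab8b 22.9 ± 2.72% against 27.7 ± 2.78%, SD, n = 3, exact permutation p = 0.2), and for the Rab2 (exact permutation p = 0.4) and Rab6 pairs (exact permutation p = 0.8).

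**Figure D4:**
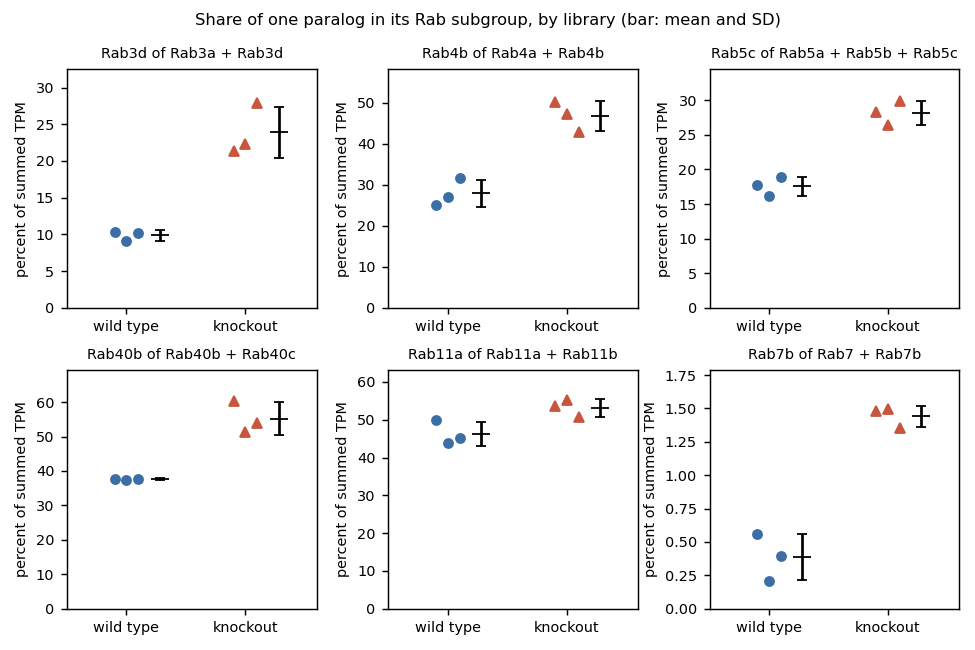
Share of 1 paralog in the summed TPM of its Rab subgroup, in percent, for 6 subgroups; circles are wild-type and triangles knockout libraries, and the bar beside them gives mean and SD of the 3. The 6 were picked from the 7 subgroups with a share that did not overlap, so in each panel the 3 knockout libraries lie above the 3 wild-type libraries. An example is Rab4b, at 42.9% to 50.1% against 25.0% to 31.6%. The Rab2, Rab6 and Rab8 subgroups, whose shares overlapped, are not shown.

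Of the genes that load Rabs with GTP, 15 of 47 GEFs tested were higher on the deposited scale (36.3% of all genes), and after rescaling 5 were higher (14.3% of all genes) and 6 lower (13.9% of all genes), so that none of these shares was above that of all genes. The list median was 0.34 and -0.01 (log2 fold change). Of the 47 GEFs, 2 passed the filter on low values only through their knockout libraries and could only be seen to be higher. Rin1 and Rin3, both exchange factors of Rab5, rose on both scales. Rin1 was 0.722, 0.283 and 1.08 TPM in the wild type and 3.45, 3.59 and 2.50 TPM in the knockout (log2 fold change 1.32, SE 0.19, adjusted p = 0.000280, and 1.10 after rescaling, adjusted p = 0.00406). Rin3 was 1.20, 1.61 and 2.18 TPM against 5.61, 4.41 and 6.69 TPM (1.30, SE 0.18, adjusted p = 0.000231, and 1.01 after rescaling, adjusted p = 0.00256). Rab3il1, an exchange factor of Rab3 and Rab8 proteins, was 1.34, 0.987 and 1.27 TPM against 3.33, 3.92 and 3.51 TPM (1.06, SE 0.14, adjusted p = 0.000153, and 0.79 after rescaling, adjusted p = 0.00335). Ankrd27, which acts on Rab21, was 5.91, 5.01 and 6.97 TPM against 11.4, 10.5 and 9.53 TPM (0.73, SE 0.15, adjusted p = 0.00365, and 0.37 after rescaling, adjusted p = 0.0357), and it missed the threshold after quantile normalization (adjusted p = 0.0519). The knockout libraries of these 4 genes all lay above the wild type on both scales.

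Of the genes that switch Rabs off, the deposited scale gave 9 higher and 1 lower of 32 GAPs tested, against 36.3% and 2.92% of all genes, and rescaling gave 5 and 2, against 14.3% and 13.9% (median log2 fold change 0.36 and 0.02). Tbc1d1 and Tbc1d4, related GAPs of the GLUT4 Rabs that insulin and exercise signals inhibit, moved in opposite directions on both scales. Tbc1d1 was 4.77, 6.72 and 5.06 TPM in the wild type and 19.8, 14.5 and 12.5 TPM in the knockout (log2 fold change 1.34, SE 0.19, adjusted p = 0.000256, and 0.97 after rescaling, adjusted p = 0.00490). Tbc1d4 was 23.5, 31.3 and 27.3 TPM against 11.8, 15.1 and 15.4 TPM (-0.91, SE 0.16, adjusted p = 0.00134, and -1.29 after rescaling, adjusted p = 0.00157). In the wild type Tbc1d4 was the more abundant of the pair in each library, while in knockout library 1 Tbc1d1 was. Tbc1d13, a GAP of Rab35, averaged 3.22 ± 0.155 and 6.26 ± 0.743 TPM and Tbc1d2b averaged 1.13 ± 0.135 and 2.94 ± 0.207 TPM (SD, n = 3), and both were higher on both scales. Leaving out wild-type library 1 gave 5 higher GAPs on the deposited scale and leaving out knockout library 2 gave 14, and 2 were lower when library 2 of either genotype was left out.

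The machinery that lipid-modifies Rabs and cycles them through the cytosol had 7 of 11 genes tested higher on the deposited scale (36.3% of all genes) and 1 after rescaling (14.3% of all genes), with medians of 0.49 and 0.17. Gdi2, a GDP dissociation inhibitor, was 70.6, 81.4 and 95.6 TPM in the wild type and 173, 106 and 159 TPM in the knockout (log2 fold change 0.79, SE 0.20, adjusted p = 0.00945, and 0.39 after rescaling, adjusted p = 0.0807). Lrrk1, a kinase of Rab7, and Arl6ip5, of a family that binds prenylated Rabs, passed on the deposited scale at 0.60 and 0.59 and not after rescaling, at 0.33 and 0.19. Arl6ip5 also missed the threshold when wild-type library 1 (adjusted p = 0.0738), wild-type library 2 (adjusted p = 0.0842) or knockout library 1 (adjusted p = 0.0652) was left out. The 7 calls became 3 when wild-type library 1, wild-type library 2 or knockout library 1 was left out, and 4 when knockout library 3 was.

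Effectors that act on endosomes included 10 of 32 higher genes on the deposited scale (36.3% of all genes). After rescaling 0 were higher (14.3% of all genes) and 4 were lower (13.9% of all genes). Those with the smallest adjusted p were Vps39 and Vps11, subunits of the tethers that Rab5 and Rab7 use, with Tgfbrap1, another such subunit, and Ankfy1, a Rab5 effector. Their log2 fold changes were 0.71, 0.55, 0.57 and 0.50 on the deposited scale (adjusted p from 0.00846 to 0.0144), and 0.35, 0.19, 0.23 and 0.18 after rescaling, where none of the 4 passed. When 1 library was left out, Vps11 missed the threshold without wild-type library 2 (adjusted p = 0.0533), as did Tgfbrap1 (adjusted p = 0.0618), and Ankfy1 missed it without wild-type library 1 (adjusted p = 0.0513) or knockout library 3 (adjusted p = 0.0504). The 10 calls became 3 and 2 when wild-type libraries 1 and 2 were left out in turn, and 6 and 5 when knockout libraries 1 and 3 were.

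Among 19 effectors of exocytosis and the plasma membrane 5 were higher on the deposited scale (36.3% of all genes), and after rescaling 3 were higher and 3 lower (14.3% and 13.9% of all genes). Myo5a, the motor that carries vesicles with Rab27a, Rab8a or Rab10, was 0.847, 0.594 and 0.913 TPM in the wild type and 3.73, 3.27 and 3.06 TPM in the knockout (log2 fold change 1.29, SE 0.14, adjusted p = 4.54e-05, and 1.04 after rescaling, adjusted p = 0.000543). No wild-type library of Myo5a reached 1 TPM. Like Rab7b, it entered the test only through its knockout libraries and could only be seen to be higher. Mical3 and Micall1, of a family that binds Rab8 and related Rabs, averaged 12.0 ± 1.43 and 9.05 ± 1.05 TPM in the wild type and 24.5 ± 3.55 and 23.2 ± 8.17 TPM in the knockout (SD, n = 3), and both were higher on both scales. Exoc7, of the exocyst complex, passed on the deposited scale at 0.56 (adjusted p = 0.0210) and not after rescaling at 0.18 (adjusted p = 0.268); it also missed the threshold without wild-type library 1 (adjusted p = 0.0863), wild-type library 2 (adjusted p = 0.0816) or knockout library 1 (adjusted p = 0.0707). The 5 calls became 3 without wild-type library 1, wild-type library 2 or knockout library 1. Golgi effectors had 6 of 12 genes higher on the deposited scale (36.3% of all genes). Among them were the golgins Golga5 and Golgb1, Tmf1 and the Rab6 partner Bicd2, at log2 fold changes of 0.53, 0.45, 0.56 and 0.60. After rescaling these 4 genes were at 0.15, 0.08, 0.20 and 0.22. On that scale 0 of the 12 genes were higher (14.3% of all genes) and 1 was lower (13.9% of all genes). The 6 calls became 1 without knockout library 1 or 3, and 0 without wild-type library 1 or 2, where limma gave 6 and 4 genes an unadjusted p under 0.05. Of the 4 named, Golga5 and Tmf1 missed the threshold without wild-type library 1 or 2 or knockout library 1 or 3 (adjusted p from 0.0608 to 0.0874 and from 0.0574 to 0.0870), Golgb1 without wild-type library 1 or 2 or knockout library 3 (adjusted p from 0.0852 to 0.0930), and Bicd2 without wild-type library 1 or 2 or knockout library 1 (adjusted p from 0.0610 to 0.102).

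**Figure D5:**
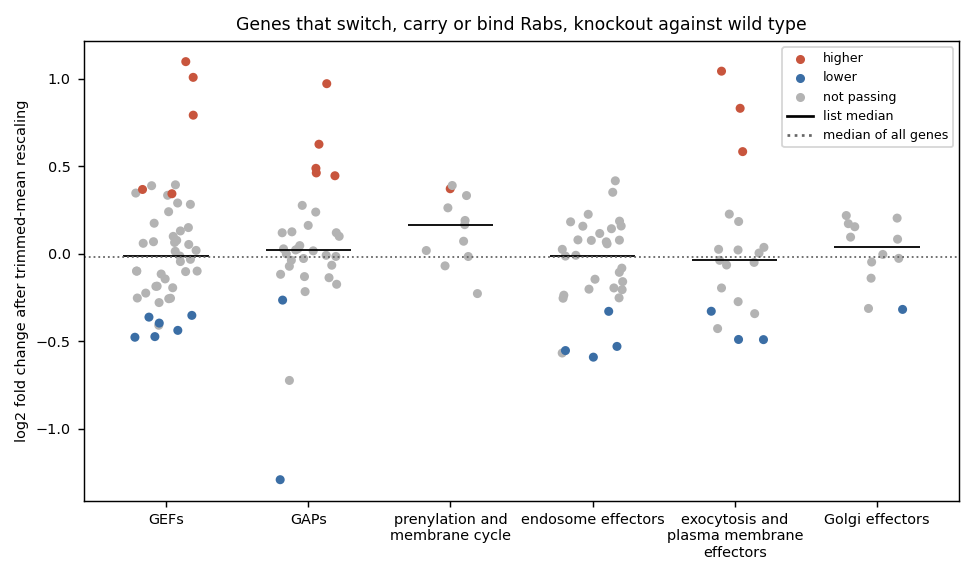
Log2 fold change after trimmed-mean rescaling of genes that switch, carry or bind Rabs, 1 point per gene tested; bars are list medians and the dotted line the median of all genes, -0.02. Red and blue points passed on this scale, 5 and 6 of 47 GEFs and 5 and 2 of 32 GAPs among them; on the deposited scale no blue point other than Tbc1d4 was lower.

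In their promoters, Rab members held GC boxes more often than the windows of all genes. Those windows were not limited to genes with a mean of at least 1 TPM, as the members were. Whether other genes of such levels differ from all windows in the same way was not tested. RefSeq windows of 300 bases, from 250 before to 50 after a start, were found for 37 of the 42 members, 49 windows in all. GGGCGG or its complement CCGCCC occurred in 73.5% of these windows and in 35.7% of the 32851 windows of all genes. TATAAA or TTTATA occurred in 1 of the 49 (2.04%), against 13.6% of all windows, and CACGTG in 12.2%, against 7.15%. CCAAT or ATTGG occurred in 44.9% of the member windows and 37.4% of all windows. It was present in 8 of the 11 windows of members higher on both scales and in 14 of the 38 windows of the other members, a description of few windows.

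Around the threshold of membership, Rab20 was just inside at 1.06 TPM and Rab32 just outside at 0.666 TPM, with 0.176, 0.296 and 0.563 TPM in the wild type and 1.28, 0.842 and 0.843 TPM in the knockout. The other 16 symbols outside averaged 0.379 TPM or less. A few members share exonic sequence with other genes in ways that may have divided their reads besides those given above: Rab6a overlaps Mrpl48 over 19.0% and Rab33b an unnamed gene model over 18.7% of exonic bases, both on the other strand, Rab20 overlaps another such gene over 25.6%, and Rab5a, Rab7 and Rab11b each have 1 named pseudogene.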

How the data were processed

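Poly(A) RNA was sequenced from muscle of wild-type and PTRF-knockout mice. Per the labels' protocols, RNA was extracted with TRIzol and a NEBNext Ultra kit served for the libraries. The submitters' processing notes name STAR 2.5.3a, kallisto 0.43.0, GRCm38 and mm10, with no role for any of them; whether counting used strand is not given in the sources used here. The deposited values were taken as TPM from their range alone, since no file header names the unit: values are not whole, and library totals run from 843194 to 872482. If the unit differed, fold changes between libraries would carry another library factor. Read depth cannot be had from TPM, so no counting interval is given, and precision rests on 3 libraries a group.

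Samples were grouped by the labels, identical files were counted once, and genes missing from a file were set to 0. The test was limma 3.58.1 (R 4.3.3) on log2(TPM + 1), with the trend option and 4 residual degrees of freedom, for the 11056 genes that reached 1 TPM in 3 or more libraries. Adjusted p-values (Benjamini-Hochberg) were taken over all of these, with a threshold of 0.05. This scale understates the change of low genes. The second scale divided each library by a trimmed mean of its ratios to the geometric mean library (30% of ratios and 5% of levels trimmed) before the same fit. Paralog shares were compared with exact permutation tests. Alternatives besides these were quantile normalization, a scale over nuclear genes, the test without the trend, a minimum of 10 TPM or none, a pseudocount of 0.1 or 5, members of at least 5 TPM, the replicate number as a block, and libraries left out singly or, for wild-type 2 with knockout 1, together. The fits on rescaled values without a library or with the block were chosen after seeing the data. The fit was checked on simulated data. The members, the compartment and regulator lists, the markers and the scales were chosen with earlier results of these data known.

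Named in full were Cavin1, the passing members with the 10 largest changes up or down, the 8 of highest mean, paralogs that differ in direction, and from each regulator list the 4 passing genes with the smallest adjusted p. A gene that the rule named from a regulator list is not reported here. Other members are given by values. Positions come from GENCODE release M21 on GRCm38 and promoters from RefSeq. Python 3.11.15 with numpy 2.4.6, pandas 2.3.3 and matplotlib 3.10.9 made the tables and plots.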

Additional observations from a re-analysis of the deposited data

How the results depend on the processing

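The scale of the libraries moved most counts. The deposited scale gave 4016 higher and 323 lower genes in all, 1581 and 1541 after trimmed-mean rescaling, 1403 and 1449 after quantile normalization and 2672 and 755 on the nuclear-only scale. Higher and lower Rab members numbered 9 and 3 after quantile normalization and 10 and 7 after trimmed-mean rescaling. Of the 41 members 37 had a log2 fold change above 0 on the deposited scale and 21 after that rescaling, which shifts all genes of a library alike; of those that turned, Rab7 (-0.33), Rab10 (-0.32) and Rab14 (-0.29) passed with the new sign. After quantile normalization Rab2b was at -0.049. Higher genes after quantile normalization and trimmed-mean rescaling numbered 3 and 5 of the GEFs, 5 and 5 of the GAPs, 3 and 1 of the prenylation and cycling genes, 3 and 3 of the exocytosis effectors, and 0 and 0 of the endosome and of the Golgi effectors, where limma gave 1 and 1 endosome and 1 and 0 Golgi effectors an unadjusted p under 0.05. Lower genes in the same order numbered 5 and 6 GEFs, 3 and 2 GAPs, 4 and 4 endosome effectors and 2 and 3 exocytosis effectors, with 1 lower Golgi effector after trimmed-mean rescaling. Quantile normalization also ended the call of Ankrd27 (adjusted p = 0.0519). The nuclear-only scale gave 5 higher GAPs, 1 higher Golgi effector and 2 lower endosome effectors.

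A filter of 10 TPM, which tests fewer genes, gave 1616 higher genes. Among them were 4 Rab members, 5 of 18 GEFs, 2 GAPs, 4 of 5 prenylation and cycling genes and 2 of 13 endosome effectors. The number of all genes tested under that filter is not given here, so these counts have no share of all genes beside them. Of the 26 members of at least 5 TPM, 6 were higher, where 36.3% of all genes tested at any level were. Without a filter 3 exocytosis and 2 Golgi effectors were higher, and 0 Rab members were lower (limma, 1 at an unadjusted p under 0.05). Leaving out wild-type library 2 along with knockout library 1, 2002 genes were higher, with 8 GEFs, 2 prenylation and cycling genes, 1 endosome, 3 exocytosis and 0 Golgi effectors (1 at an unadjusted p under 0.05). That fit gave 0 lower Rab members (limma, 0 at an unadjusted p under 0.05), and 2 after rescaling.

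Leaving out each library in turn gave 2521 to 4561 higher genes, the lowest values without wild-type libraries 2 (2521) and 1 (2676). It gave 12 to 20 higher Rab members, 8 to 9 after rescaling, 10 to 20 higher GEFs, 0 to 1 lower Rab members, 3 to 5 after rescaling, 5 to 14 higher and 1 to 2 lower GAPs, 3 to 7 higher prenylation and cycling genes, and 2 to 13 endosome, 3 to 6 exocytosis and 0 to 8 Golgi effectors. The other counts stayed within 1.5 times.

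Libraries with the same number did not deviate together (correlations of 0.03, -0.01 and 0.04), so they were not paired. With the replicate number as a block, the deposited scale gave 18 higher and 1 lower of 41 Rab members, where 4047 and 326 of all 11056 genes were. Rescaling with the block gave 10 and 4 members, and the count of all genes in that fit is not given here. On the deposited scale Rab15, Rab22a, Rab30 and Rab43 gained and Rab2b lost the call. The depth of the libraries is unknown, which limits what can be said of members near 1 TPM.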
